A study of Mus musculus with 18 samples.

Results

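The comparison set microglia of mice carrying 3 heterozygous alterations against wild-type (WT) microglia, over every gene with enough counts to be tested. It was chosen by the genotype label alone and compares 6 of the 18 libraries of the series. The altered group is labelled Tbk1+/-;Tak1ΔM/+;Ripk1D138N/+ and is called the triple genotype here (3 libraries). WT has 3 libraries. A further group of 3 libraries, labelled Tbk1+/-;Tak1ΔM/+ and called the double genotype here, lacks the Ripk1 allele and is used to place the levels of single genes. The other groups are labelled Tbk1+/-, Tak1ΔM/+ and Tbk1+/-;Ripk1D138N/D138N, with 3 libraries each. The main tests were fitted over all 18 libraries, so that the standard errors and p-values draw on the spread within all 6 genotypes. All animals were C57BL/6 mice of postnatal day 2. Their forebrain cells were grown in flasks, and microglia were shaken off and cultured, so that every library comes from cultured primary cells and not from cells taken straight from brain. Messenger RNA was measured by Smart-seq2, a full-length protocol that copies polyadenylated RNA and does not keep the strand. The labels number the libraries of a group but do not say whether they came from separate animals, pups pooled or not, or separate cultures, so the p-values measure the spread between these libraries. They also do not explain the ΔM allele or say what drives the loss of Tak1.

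RIPK1 is a kinase recruited to the receptor of tumour necrosis factor, where it can act as a scaffold for NF-κB signalling or, through its kinase activity, start apoptosis or necroptosis. TBK1 and TAK1 (gene Map3k7) are kinases of the same receptor complex that restrain the kinase activity of RIPK1, and TBK1 also acts in the induction of type I interferon. D138N is a change in RIPK1 that removes its kinase activity. The comparison therefore asks how far the transcriptome of microglia labelled as carrying 1 altered allele each of Tbk1, Tak1 and Ripk1 lies from that of WT microglia.

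The 6 libraries held between 14290775 and 22989116 gene counts, with 15672 to 16483 genes detected. In every one of them the gene identifier CT010467.1 took the largest share of counts, from 12.5% to 14.96%. The libraries of a group were not equally alike. Between WT replicates 1 and 2 the chi-square per degree of freedom of the gene counts was 15.3, against 57.0 and 61.0 between either of them and WT replicate 3. Triple replicates 2 and 3 gave 16.6, against 55.1 and 61.8 with triple replicate 1. The mitochondrial share is here the percent of counts on the 13 protein-coding genes of the mitochondrial genome, without its ribosomal RNA genes. Of those left out, mt-Rnr2 alone had more counts than the 13 together in each of the 6 libraries. WT replicate 3 and triple replicate 1 had the lowest mitochondrial share. It was 0.671% (95% Wilson interval 0.667% to 0.675%) and 0.370% (0.367% to 0.373%), where the other 4 lay between 1.05% and 1.62%. WT replicate 3 and triple replicate 1 were also the 2 in which no counts fell on the Y-linked genes Ddx3y, Uty, Kdm5d and Eif2s3y, which summed to between 45.7 and 115.8 CPM in the other 4 (CPM, the count of a gene scaled to an effective library size of 1e+06). Such intervals cover counting error only. Without both of these libraries edgeR again called 0 genes between the triple genotype and WT, of 14090 tested with the other genotypes kept. The genes at an unadjusted p under 0.05 numbered 694, in place of 1074 of 13447. Those shown to be within 2-fold numbered 6182 in place of 7367. A fit of only the 4 libraries left called 7 genes. The 3 double libraries held 17020263, 8016559 and 18020929 gene counts. Their mitochondrial shares were 0.512%, 0.508% and 0.367%, all under 1%, and their Y-linked genes summed to 84.7, 89.9 and 68.1 CPM. In these libraries the double genotype and a low share therefore go together.

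At an adjusted p under 0.05 (Benjamini-Hochberg over all genes), edgeR's quasi-likelihood test called 0 of the 13447 genes tested (0%) as different between the triple genotype and WT. The smallest adjusted p was 0.180. Before adjustment, 1074 genes (7.99%) had a p under 0.05, of which 370 were higher (2.75%) and 704 lower (5.24%) in the triple genotype. limma-voom also called 0 genes, while DESeq2 called 63. A second test on the same fit asked which genes were shown to lie within 2-fold of WT in both directions. By that test 7367 genes (54.8%) had a triple level within 2-fold of the WT level, and 6080 genes (45.2%) were neither called different nor shown to be within 2-fold. Of the 7367 genes, 7347 had a fitted change of less than 1.5-fold. With a margin of 1.5-fold in place of 2-fold, 2220 genes passed.

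How much could be shown depended on the count level of the gene. Below a mean of 1 CPM none of 2384 genes could be placed within 2-fold (0%). From 1 to 5 CPM the share was 7.45% of 2148 genes, and from 5 to 20 CPM it was 60.4% of 3389 genes. It reached 92.5% of 4150 genes between 20 and 100 CPM, and 96.1% of 1376 genes at 100 CPM or more. The median standard error (SE) of the log2 fold change was 1.34 in the lowest of these ranges and 0.15 in the highest. Of the 1708 undetermined genes at 5 CPM or more, 98 had a fitted change of at least 2-fold. The median log2 fold change of all tested genes was 0.04, with 7299 genes above 0 and 6148 below.

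**Figure D1:**
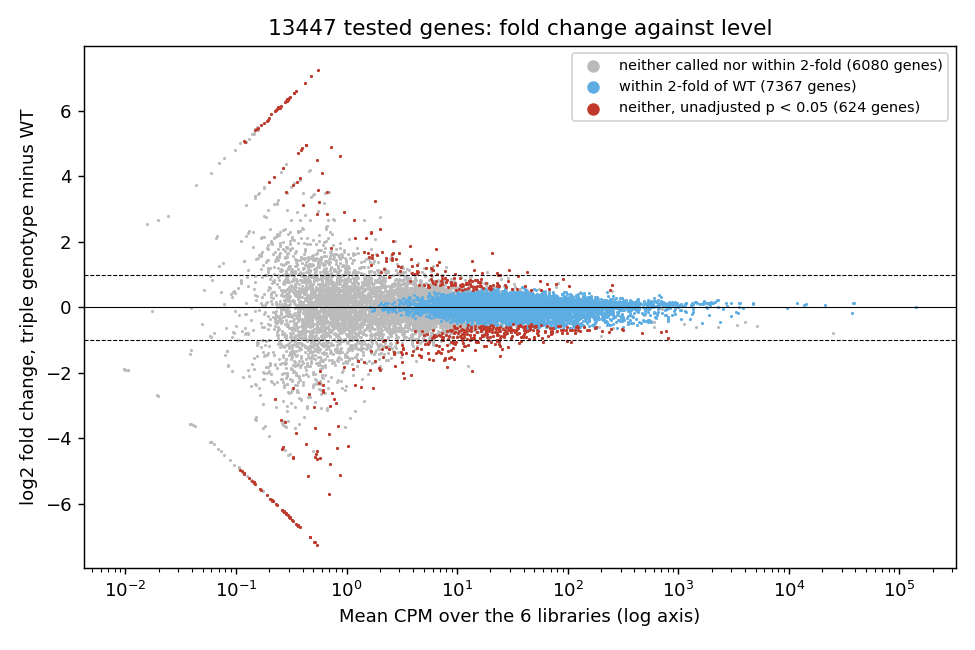
Each point is a tested gene. The horizontal axis is its mean level in the 6 libraries (CPM, log axis), the vertical axis its log2 fold change of the triple genotype over WT, and the dashed lines mark 2-fold. The 7367 genes shown to be within 2-fold fill the band near 0 from about 5 CPM upward, and points outside the dashed lines lie mostly at low levels.

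The altered genes themselves were read first. Tbk1 (ENSMUSG00000020115) was at 106, 104 and 149 CPM in the WT libraries and 123, 107 and 115 CPM in the triple libraries. The triple values lie inside the range of the WT values, the log2 fold change was -0.05 (SE 0.25), and Tbk1 was among the genes within 2-fold (adjusted p 0.00206 for that test in edgeR's fit, at most 0.0126 with any 1 library left out). The messenger RNA level therefore does not show the Tbk1+/- label of the triple libraries, and each direction given for them rests on that label. In the double libraries, which carry the same Tbk1 label, Tbk1 was at 55.1, 56.4 and 66.002 CPM.

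Map3k7, the gene of TAK1, was at 10.95, 10.4 and 19.2 CPM in WT and 10.2, 11.6 and 6.999 CPM in the triple genotype. The groups overlap, with a log2 fold change of -0.50 (SE 0.32, 95% interval -1.18 to 0.19, edgeR adjusted p 0.795). Ripk1 was at 19.1, 16.97 and 23.8 CPM in WT and 61.95, 23.1 and 26.2 CPM in the triple genotype. Triple replicate 1 is the high one, while triple replicate 2 lies inside the WT range. The log2 fold change was 0.89 (SE 0.43, edgeR adjusted p 0.638, and 0.017 in edgeR without the filter on low counts). A gene-level count does not read the D138N allele, so the Ripk1 label was not checked by these values.

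The 4 genes of smallest unadjusted p among those at 5 CPM or more with no overlap between the groups were all lower in the triple libraries. Groups without overlap were found for 1011 tested genes in this direction (7.52%) and for 905 in the other (6.73%). Cetn3 (ENSMUSG00000021537; chromosome 13, 81783077 to 81797155 of GRCm38), which encodes a centrin of the centrosome, was at 85.2, 99.2 and 88.8 CPM in WT and 53.7, 54.9 and 49.2 CPM in the triple genotype. Its log2 fold change was -0.79 (SE 0.14, 95% interval -1.09 to -0.49, edgeR adjusted p 0.18). Ddx3x, an RNA helicase gene of chromosome X, was at 275, 293 and 315 CPM against 197, 162 and 164 CPM, a log2 fold change of -0.75 (SE 0.15). Ddx3x is known to escape X inactivation, and its Y-linked partner Ddx3y had no counts in WT replicate 3 and triple replicate 1. Each group thus has 1 library without Y-linked counts. With Y-linked CPM as a covariate edgeR called 0 genes, as it did without the covariate, so that number cannot show what part sex has. The part of the sex of the cells in the difference of Ddx3x was not tested.

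AI987944 was at 60.2, 41.2 and 53.2 CPM in WT and 27.3, 35.04 and 21.6 CPM in the triple genotype, a log2 fold change of -0.88 (SE 0.17). Msantd4 was at 80.97, 98.7 and 85.5 CPM and 52.7, 47.8 and 57.3 CPM, with a log2 fold change of -0.75 (SE 0.15). In each of these 4 genes all 3 triple libraries lie under all 3 WT libraries, with a fitted change of less than 2-fold, and none passed the adjusted threshold in edgeR. All 4 passed in DESeq2, with adjusted p of 0.00128 for Cetn3, 0.00138 for AI987944, 0.00149 for Ddx3x and 0.00187 for Msantd4. The same 4 genes had low GC content in their longest transcript, 38.3% for Cetn3, 41% for Ddx3x, 38.7% for AI987944 and 42.8% for Msantd4, against a median of 49.1% over the genes at 5 CPM or more.

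**Figure D2:**
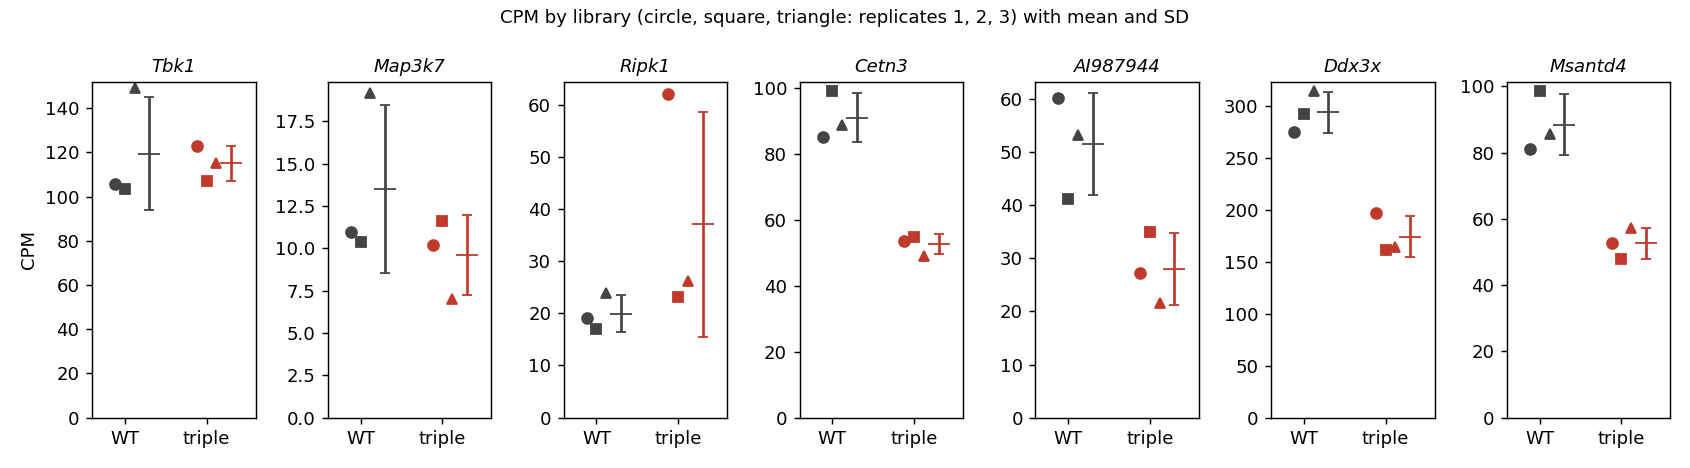
Level (CPM, linear axis from 0) of the 3 altered genes and of the 4 genes of smallest unadjusted p, in each WT and triple library. Circles, squares and triangles are replicates 1, 2 and 3, and the bar beside them gives the mean and SD of 3 libraries. The groups overlap for Tbk1, Map3k7 and Ripk1 and do not overlap for Cetn3, AI987944, Ddx3x and Msantd4.

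Other genes were picked out after their values were seen. Npm1, the nucleolar chaperone nucleophosmin, was at 305, 335 and 369 CPM in WT and 213, 227 and 218 CPM in the triple genotype, and at 141 ± 2.94 CPM (SD, n = 3) in the double genotype. Its log2 fold change against WT was -0.62 (SE 0.12, edgeR adjusted p 0.18). The triple value lies between the WT and double values, and the triple genotype was higher than the double by 0.64 on the log2 scale (edgeR adjusted p 0.00922). Picalm, a clathrin assembly gene, was at 144, 146 and 166 CPM against 102, 99.5 and 97.6 CPM, a log2 fold change of -0.61.

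Wdr92 and Ash2l were among the genes with higher values. Wdr92, a cofactor of the assembly of dynein motors, was at 10.8, 6.89 and 9.05 CPM in WT and 19.8, 22.2 and 16.7 CPM in the triple genotype, a log2 fold change of 1.13 (SE 0.23, 95% interval 0.64 to 1.62, edgeR adjusted p 0.224). Ash2l, a subunit of histone H3 lysine 4 methyltransferase complexes, was at 9.12, 11.02 and 9.17 CPM in WT and 53.4, 20.6 and 19.5 CPM in the triple genotype. All 3 triple libraries are above WT, but replicate 1 stands far above replicates 2 and 3 and near the double genotype, which was at 50.7, 46.7 and 57.2 CPM. Both passed in DESeq2, with adjusted p 0.00611 for Wdr92 and 0.034 for Ash2l. Of the 63 genes that DESeq2 called, 4 were higher in the triple genotype, the other two being Zfp30 and Cacfd1, and 59 were lower.

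The direction of the differences followed the base composition of the transcripts. Among 8913 genes at 5 CPM or more with a known GC content, the log2 fold change and the GC content had a Spearman correlation of 0.475, given as a description because genes share their libraries. Genes under 40% GC had a median log2 fold change of -0.41, and 223 of 608 were lower at an unadjusted p under 0.05 against 3 higher. Genes between 52% and 56% GC had a median of 0.13, with 6 of 1726 lower and 98 higher. The correlation of 0.475 is for group means. Differences of 1 triple library minus 1 WT library had correlations with GC content from 0.153 to 0.456, and differences between WT libraries or between triple libraries from -0.261 to 0.159. Triple replicates 1 and 2 minus WT replicate 1 gave 0.174 and 0.153, smaller in size than 0.261. The genes lower at an unadjusted p under 0.05 had a median GC content of 40.9% and the higher ones 53%.

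After a correction for GC content and transcript length, added after the data were seen, edgeR again called 0 genes. The genes at an unadjusted p under 0.05 were then 422 higher and 313 lower, so that the surplus of lower genes was not present on that scale. The correction takes out any trend with GC content or length in each library, whatever its source. The cause of the surplus was therefore not tested by it. The log2 fold change became -0.30 for Cetn3, -0.51 for AI987944, -0.49 for Ddx3x and -0.57 for Msantd4. It became -0.38 for Npm1 and -0.30 for Picalm, and was 1.18 for Wdr92 and 1.79 for Ash2l. Fold changes below are without this correction unless it is named.

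Zinc finger genes with the Zfp symbol showed the same lean, a set noticed in the data. Of 207 at 5 CPM or more, 143 had a log2 fold change below 0 and 46 (22.2%) were lower at an unadjusted p under 0.05, against 6.5% of all genes at that level. Their median GC content was 42.5%. Among genes under 44% GC the shares were 44 of 120 (36.7%) for Zfp genes and 422 of 1947 (21.7%) for the others. Reads of this family can map to near-identical copies, so the values of single members are uncertain.

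**Figure D3:**
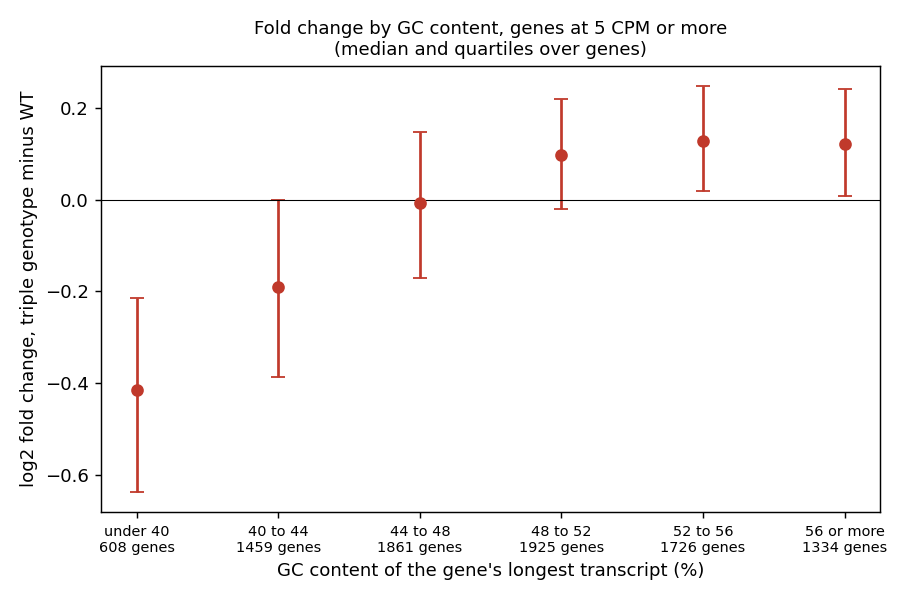
Median log2 fold change of the triple genotype over WT (points) with its quartiles (bars), for genes at 5 CPM or more in 6 ranges of transcript GC content (percent). The median goes from -0.41 under 40% GC to 0.13 between 52% and 56% GC.

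Genes induced by type I interferon had values near those of WT in the triple genotype and higher values in the double genotype. These genes are switched on by a complex of transcription factors that includes STAT2 and IRF9 and binds interferon-stimulated response elements whose core repeats GAAA. In RefSeq promoter windows of GRCm38.p6, from 250 bases before to 50 bases after the start, the pattern of GAAA, any 2 bases and GAAA again, on either strand, was found in 22 of the 34 list genes with a window (64.7%), against 4.0% of 27025 genes with a window. The windows of Isg15, Ifit3 and Rsad2 are shown because the values of these 3 genes carry the contrast between the genotypes. They are written 5′ to 3′ on the strand of the gene, with the bases that match the pattern in capitals. The matches in Isg15 overlap each other, and a match is a run of letters, not a measured binding site. Isg15 lies at chr4:156200769-156201068 on the minus strand, Ifit3 at chr19:34583279-34583578 on the plus strand and Rsad2 at chr12:26456403-26456702 on the minus strand.
Isg15: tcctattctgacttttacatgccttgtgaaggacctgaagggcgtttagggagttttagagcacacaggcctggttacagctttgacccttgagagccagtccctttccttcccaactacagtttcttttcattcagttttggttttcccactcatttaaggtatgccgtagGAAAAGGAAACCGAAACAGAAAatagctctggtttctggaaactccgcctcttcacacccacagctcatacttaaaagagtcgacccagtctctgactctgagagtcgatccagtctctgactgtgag
Ifit3: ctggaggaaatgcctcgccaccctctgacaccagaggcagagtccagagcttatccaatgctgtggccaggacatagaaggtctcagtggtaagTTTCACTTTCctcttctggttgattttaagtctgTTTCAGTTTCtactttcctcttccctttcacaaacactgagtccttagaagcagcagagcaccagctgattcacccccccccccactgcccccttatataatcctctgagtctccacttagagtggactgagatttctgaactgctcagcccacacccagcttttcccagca
Rsad2: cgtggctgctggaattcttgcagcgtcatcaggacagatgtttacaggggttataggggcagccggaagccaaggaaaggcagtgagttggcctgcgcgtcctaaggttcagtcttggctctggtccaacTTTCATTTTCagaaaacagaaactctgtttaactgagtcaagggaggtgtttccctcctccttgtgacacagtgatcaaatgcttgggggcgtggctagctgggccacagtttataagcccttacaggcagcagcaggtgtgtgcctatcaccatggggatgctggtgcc

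Of 45 interferon-induced genes tested, 0 were called between the triple genotype and WT (0% of all genes), and 30 were within 2-fold, against 54.8% of all tested genes. Their median log2 fold change was 0.00, beside 0.04 for all tested genes. In each fit that left out 1 WT or triple library the number within 2-fold was 21 to 24, and 14 of the 30 kept that call with each library of the 3 genotypes left out in turn. Leaving out WT replicate 3 and triple replicate 1 together left 16. The double genotype shares the WT libraries as its control. edgeR called 6.07% of all tested genes between the double genotype and WT and 2.45% between the triple and the double genotype. In the double genotype 29 of the 45 were called higher than WT, where 2.16% of all genes were, and the median log2 fold change was 1.47. Set directly against the double genotype, 28 of the 45 were lower in the triple genotype, where 0.617% of all genes were, with a median of -1.52. Without triple replicate 2 this number was 15, without triple replicate 3 it was 17, and without double replicate 1 it was 17.

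Isg15, a ubiquitin-like modifier, was at 6.01, 4.12 and 5.45 CPM in WT, 4.86, 5.56 and 5.65 CPM in the triple genotype and 26.1, 25.4 and 25.8 CPM in the double genotype. The triple libraries fall among the WT libraries, and every double library is above both groups. Its log2 fold change was 0.04 (SE 0.24) for the triple genotype against WT, within 2-fold, and -2.26 against the double genotype (edgeR adjusted p 9.43e-05, at most 0.00131 with 1 library left out). Rsad2, which encodes the antiviral enzyme viperin, was at 16.2, 14.8 and 12.1 CPM in WT, 6.996, 17.1 and 20.4 CPM in the triple genotype and 85.8, 83.5 and 78.1 CPM in the double genotype. The WT and triple libraries overlap, and the log2 fold change of the triple over the double genotype was -2.47 (edgeR adjusted p 0.00278). Ifit3, an RNA-binding antiviral protein, was at 10.1, 8.48 and 11.4 CPM in WT, 10.1, 4.90 and 10.2 CPM in the triple genotype and 80.7, 76.4 and 81.5 CPM in the double genotype, and its level was too variable to be placed within 2-fold of WT (log2 fold change -0.24, SE 0.53). Isg15 and Rsad2, like the regulators that follow, were chosen after their values were seen.

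Regulators of this program were read in the same way. Stat2 was at 39.1 ± 9.17 CPM in WT, 39.2 ± 4.61 CPM in the triple genotype and 90.97 ± 4.77 CPM in the double genotype (SD, n = 3). It was within 2-fold of WT in the triple genotype, with an adjusted p of at most 0.00271 with any 1 library left out. Irf7, which amplifies the response, was at 18.3, 17.1 and 30.4 CPM in WT, 26.1, 27.7 and 26.9 CPM in the triple genotype and 92.6, 91.2 and 88.3 CPM in the double genotype, and lost its place within 2-fold without WT replicate 3 (adjusted p 0.115). Usp18, a brake on the interferon receptor, was at 5.15 ± 0.938 CPM in WT, 6.69 ± 1.46 CPM in the triple genotype and 34.5 ± 4.20 CPM in the double genotype (SD, n = 3). In the triple genotype it was neither called nor within 2-fold of WT.

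The list members named by rule were the 4 with most counts among those within 2-fold. Lgals3bp was at 349.5, 310.0 and 254 CPM in WT and 291, 346 and 371 CPM in the triple genotype, and Slfn2 was at 235, 226 and 233 CPM against 250.2, 233 and 250.4 CPM. Ifitm3, a membrane protein that blocks virus entry, was at 292, 299.7 and 201 CPM against 223, 296 and 291 CPM. All 3 were within 2-fold, and their triple values overlap the WT values. Ifi207, of the family of DNA sensors with a pyrin domain, had lower values, 154, 170.3 and 212 CPM in WT and 177, 104 and 124 CPM in the triple genotype (log2 fold change -0.40, SE 0.19, edgeR adjusted p 0.605). It was within 2-fold, but not when triple replicate 1 was left out (adjusted p 0.088). At an unadjusted p under 0.05, 3 of the 45 genes were lower (Eif2ak2, Gbp3 and Ifi207) and 0 higher. With the GC and length correction their log2 fold changes went from -0.59, -1.24 and -0.40 to -0.45, -1.19 and -0.25.

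**Figure D4:**
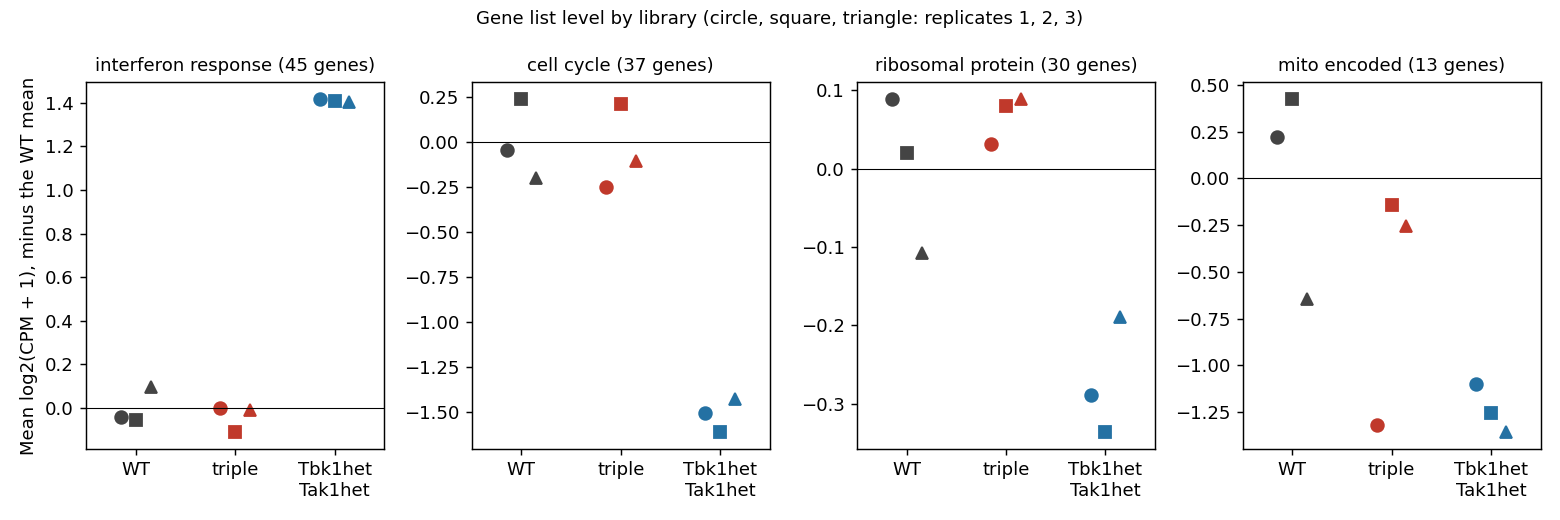
Mean over the list of log2(CPM + 1) in each library, minus the mean of the WT libraries, for 4 gene lists, with WT, triple and double libraries apart. For interferon genes the triple libraries lie between -0.11 and 0.00 and the double libraries between 1.41 and 1.42; for cell cycle genes the ranges are -0.25 to 0.21 and -1.61 to -1.43.

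Of 37 cell cycle genes tested, 0 were called in the triple genotype, where 12 were within 2-fold of WT and 25 undetermined, with a median log2 fold change of 0.00. In the double genotype 20 were called lower than WT (3.9% of all genes) and the median was -2.05, and 18 were higher in the triple than in the double genotype (1.84% of all genes). The last number was 5 and 7 without triple replicate 2 or 3, 2, 4 and 11 without double replicate 1, 2 or 3, and 1 in limma-voom. The number of 20 became 11 without WT replicate 2, 13 without double replicate 2 or 3, and 3 in limma-voom.

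Ube2c and Ccnb1, 2 mitotic genes chosen after their values were seen, kept both double-genotype calls with every library left out in turn. Ube2c, the ubiquitin-conjugating enzyme of the anaphase-promoting complex, was at 16.1, 14.1 and 9.11 CPM in WT, 12.6, 20.4 and 14.2 CPM in the triple genotype and 1.64, 0.902 and 1.59 CPM in the double genotype. The triple genotype was higher than the double by 3.45 on the log2 scale (edgeR adjusted p 0.000404). Ccnb1, cyclin B1, was at 10.003, 16.5 and 9.34 CPM in WT, 9.55, 14.3 and 8.54 CPM in the triple genotype and 0.848, 1.58 and 0.996 CPM in the double genotype, a log2 difference of 3.29 between the triple and double genotypes (edgeR adjusted p 0.00278). In both genes the WT and triple libraries overlap and all double libraries lie lower, and neither could be shown to be within 2-fold of WT.

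The genes of the list with higher counts act at entry into and passage through S phase. Cdk4, the kinase of G1, was at 148, 148 and 123 CPM in WT and 153, 174 and 155 CPM in the triple genotype, with a log2 fold change of 0.20 (SE 0.10). Pcna, the sliding clamp of DNA polymerases, was at 122, 162 and 153 CPM against 132, 151 and 133 CPM, and Mcm6, of the replicative helicase, at 96.8, 139 and 120.1 CPM against 128, 127 and 110.0 CPM. Ccnd1, cyclin D1, was at 65.97, 86.9 and 70.9 CPM against 73.1, 78.6 and 76.4 CPM. All 4 were within 2-fold of WT. In the double genotype Cdk4 was at 166 ± 4.06 CPM and Pcna at 153 ± 4.35 CPM (SD, n = 3), values above the WT means. In bulk libraries fewer cells in a phase and less RNA per cell cannot be told apart.

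The cells carried markers that microglia share with other macrophages. All 12 general markers of microglia and macrophages that were tested were within 2-fold of WT. This held in the fit of all libraries and with each library left out in turn. Among all tested genes at 100 CPM or more, 96.1% were within 2-fold. The summed level of the markers was 9953 to 11164 CPM in WT and 11053 to 11823 CPM in the triple genotype. Csf1r, the receptor that microglia need to survive, was at 2184, 1963 and 2154 CPM in WT and 2658, 2237 and 2413 CPM in the triple genotype, where all 3 libraries are higher by a log2 fold change of 0.21 (SE 0.15, edgeR adjusted p 0.825). Tyrobp, the adaptor of TREM2, was at 1372 ± 142 CPM against 1545 ± 141 CPM (SD, n = 3), and Cd68, a lysosomal protein of phagocytes, at 1867 ± 232 CPM against 2039 ± 159 CPM. Ptprc, the leukocyte antigen CD45, had the largest negative value of the list, 422, 428 and 502 CPM in WT and 333, 338 and 307 CPM in the triple genotype, with no overlap. Its log2 fold change of -0.46 (SE 0.13) was within 2-fold. Its edgeR adjusted p for a difference was 0.328, it passed in DESeq2 (adjusted p 0.049), and the corrected value for GC content and length was -0.13.

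The list of homeostatic genes, a state that microglia tend to lose in culture, summed to between 16113 and 18566 CPM over the 6 libraries, with Csf1r, Ctss, Cst3 and C1qb abundant and several members low in both genotypes. Tmem119 was at 4.50, 3.005 and 3.83 CPM in WT and 4.86, 5.78 and 3.83 CPM in the triple genotype, and Sall1, a transcription factor of microglial identity, at 0.886, 4.01 and 3.36 CPM against 0.474, 2.19 and 0 CPM. Siglech and Slc2a5 had too few counts to be tested. P2ry12, the receptor for released ADP, was at 11.2, 15.7 and 9.17 CPM in WT and 6.28, 7.32 and 7.84 CPM in the triple genotype, with no overlap and a log2 fold change of -0.75 (SE 0.34, edgeR adjusted p 0.589) that became -0.34 after the GC and length correction. Of 28 genes of this list tested, 0 were called and 21 were within 2-fold, among them Ctss, Cst3 and the C1q genes.

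Gpr34, a lysophosphatidylserine receptor of microglia chosen after its values were seen, had the lowest log2 fold change of the list members at 5 CPM or more. It was at 89.8, 136 and 167 CPM in WT, 72.9, 67.01 and 54.4 CPM in the triple genotype and 31.7, 25.5 and 19.4 CPM in the double genotype, in 3 ranges that do not overlap. Its log2 fold change against WT was -1.02 (SE 0.25, 95% interval -1.55 to -0.48, edgeR adjusted p 0.29). DESeq2 called it (adjusted p 0.026), and after the GC and length correction it was -0.49. In the double genotype it fell by 2.36 against WT on the log2 scale (edgeR adjusted p 0.000111). The triple genotype was above the double by 1.34 (edgeR adjusted p 0.00984), a call lost without double replicate 2 or 3, with an adjusted p of up to 0.07.

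The 10 protein-coding genes of highest mean CPM among those within 2-fold were Spp1, Lyz2, Apoe, Ctsb, Ctsd, Fth1, Ftl1, Gpnmb, Actb and Lgals3, most of them genes of lysosomes, lipid handling and iron storage that are high in phagocytic microglia. Apoe, the lipid carrier, was at 39799, 32750.5 and 36229 CPM in WT and 39591, 34919 and 43769.7 CPM in the triple genotype, with a log2 fold change of 0.12 (SE 0.17). Ctsb, a lysosomal protease, was at 21494, 20918 and 19651 CPM against 21012, 21874 and 22694 CPM (0.08, SE 0.10). Spp1, osteopontin, was at 42303, 47611 and 29285 CPM against 25465, 41802 and 37971 CPM (-0.18, SE 0.28), and lost its place within 2-fold without WT replicate 3 or triple replicate 2 (adjusted p at most 0.0608).

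Several of these genes were low in 1 library of each group. Fth1, the heavy chain of ferritin, was at 16486, 16833 and 8142 CPM in WT and 8874, 18217 and 17386 CPM in the triple genotype, so that WT replicate 3 and triple replicate 1 are the low ones in their groups. Gpnmb, a glycoprotein of lysosome-rich phagocytes, was at 15915, 15152 and 8778 CPM against 9442, 15792 and 16767 CPM, and Lgals3, galectin-3, at 5475, 5408 and 2582 CPM against 2986, 5846 and 5819 CPM. The low values fall in the same 2 libraries, which also have the low mitochondrial shares. The 3 genes were within 2-fold across groups, but Gpnmb not without triple replicate 1 (adjusted p 0.0504) and Lgals3 not without WT replicate 1, WT replicate 2 or triple replicate 1 (up to 0.0619).

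**Figure D5:**
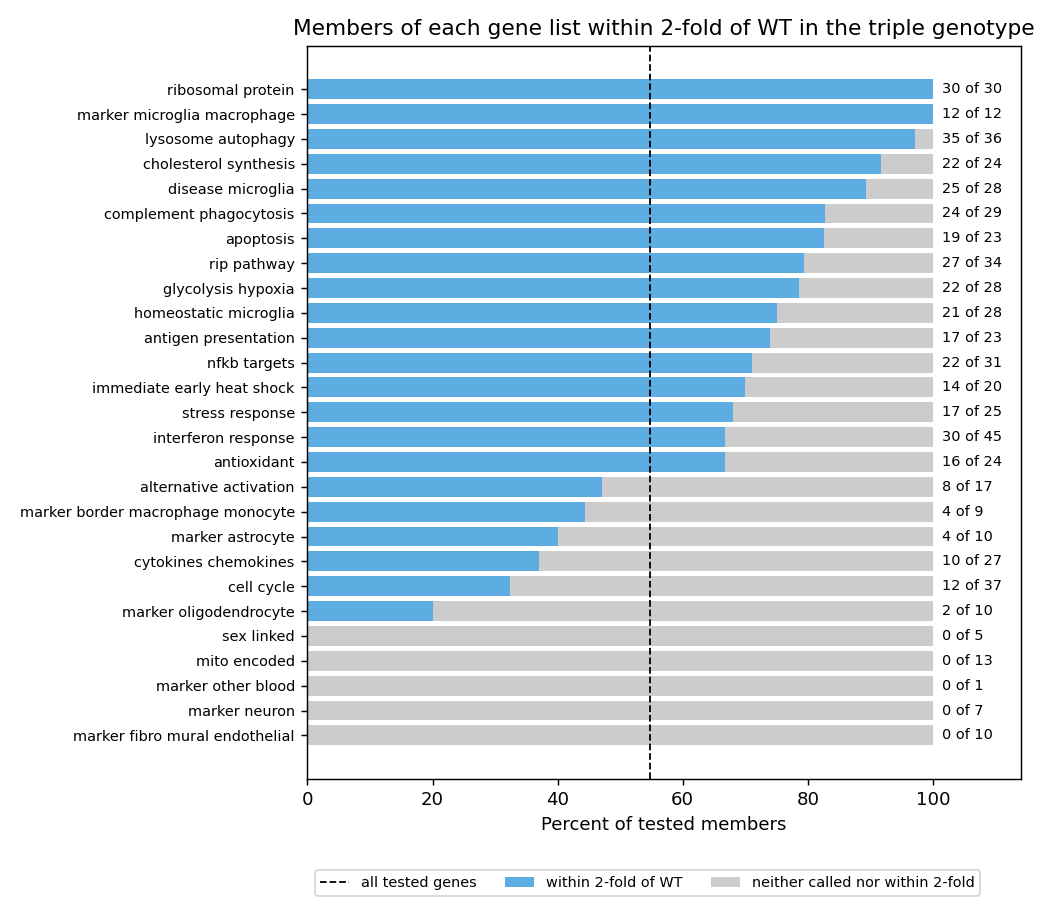
Percent of the tested members of each gene list whose triple level was shown to lie within 2-fold of WT (bars), with the share of all tested genes, 54.8%, as a dashed line. Ribosomal protein genes and general microglial markers reach 100%, and mitochondrially encoded genes are at 0%. The line covers genes of every count level, and the share over all genes goes from 0% under 1 CPM to 96.1% at 100 CPM or more. The order of the lists is therefore not free of their count levels.

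Of 34 genes of the receptor complex around RIPK1 that were tested, 27 were within 2-fold (22 of them with each library left out in turn), 7 were undetermined and 0 were called, with a median log2 fold change of 0.09. Over all tested genes the share within 2-fold was 54.8%, and at 5 CPM or more it was 80.8%. The receptors Tnfrsf1a and Tnfrsf1b bind tumour necrosis factor. Tnfrsf1a was at 131, 135 and 129 CPM in WT and 163, 132 and 156 CPM in the triple genotype, and Tnfrsf1b at 322, 284 and 299.6 CPM against 296, 309.8 and 358 CPM. The initiator caspase Casp8, which RIPK1 activates in apoptosis, was at 88.8, 108 and 119 CPM in WT and 120.2, 87.7 and 101 CPM in the triple genotype, a log2 fold change of -0.03 (SE 0.15). Both receptors and Casp8 were within 2-fold with every library left out in turn.

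The effectors of necroptosis had low counts. Ripk3 was at 7.85, 10.1 and 8.76 CPM in WT and 14.3, 12.7 and 8.31 CPM in the triple genotype and was undetermined (95% interval -0.48 to 1.27 on the log2 scale). Mlkl, the pore-forming effector, was at 6.77 ± 1.58 CPM against 7.25 ± 2.82 CPM (SD, n = 3). Among the ubiquitin ligases, Birc2 was at 22.3, 21.8 and 24.2 CPM in WT and 13.8, 10.3 and 17.6 CPM in the triple genotype, with no overlap (log2 fold change -0.71, SE 0.29, edgeR adjusted p 0.527). The fold change of Birc2 was -0.54 after the GC and length correction. Tab3, an adaptor of TAK1, was at 3.99, 7.25 and 10.4 CPM against 1.84, 4.68 and 3.59 CPM with overlapping groups. Ripk3, Mlkl, Birc2 and Tab3 were chosen after their values were seen.

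Genes of the mitochondrial and caspase pathway of apoptosis gave 0 calls among 23 tested, with 19 within 2-fold. The share within 2-fold was 80.8% over all tested genes at 5 CPM or more. Bax, which permeabilises mitochondria, was at 131, 112 and 113 CPM in WT and 136, 131 and 139 CPM in the triple genotype, and its antagonist Bcl2l1 at 144, 130.1 and 92.1 CPM against 109.6, 148 and 142 CPM. Mcl1, a short-lived antagonist of apoptosis, was at 155, 172 and 183 CPM against 133, 144 and 137.97 CPM with no overlap (log2 fold change -0.30, SE 0.14). Cdkn1a, a target of p53, was at 169, 163 and 133 CPM against 137, 162 and 174 CPM. All 4 were within 2-fold with each library left out in turn, Bax with a log2 fold change of 0.19.

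Targets of NF-κB gave 0 calls among 31 tested, with 22 within 2-fold and a median log2 fold change of 0.14. Beside these 22 of 31, 80.8% of all tested genes at 5 CPM or more were within 2-fold. Nfkbia, the inhibitor that NF-κB induces, was at 116, 104 and 104 CPM in WT and 124, 110.3 and 125 CPM in the triple genotype. Tlr2, a receptor for bacterial lipoproteins, was at 228, 198 and 229.8 CPM against 264, 219.8 and 239.6 CPM, and Cd83, an activation marker, at 314, 253 and 314 CPM against 338, 296 and 348 CPM. These 3 overlap between the groups and were within 2-fold.

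Of 27 cytokines and chemokines tested, 0 were called, 10 were within 2-fold and 17 undetermined, and 4 of the 31 on the list, Il6, Il12b, Lif and Nos2, had too few counts. Tnf, the ligand of the receptor that recruits RIPK1, was at 13.99, 12.3 and 16.3 CPM in WT and 21.995, 14.997 and 14.98 CPM in the triple genotype, a log2 fold change of 0.29 (95% interval -0.54 to 1.12). Il1b was at 15.005, 10.6 and 24.8 CPM against 29.1, 8.85 and 14.7 CPM. For both the groups overlap. The chemokine Ccl9 was at 543, 611 and 738 CPM in WT and 632, 607 and 459 CPM in the triple genotype, and Ccl4 at 134, 147 and 140.4 CPM against 151, 149.9 and 138.16 CPM. Both were within 2-fold, a call that Ccl9 lost without WT replicate 1 or 2, triple replicate 1 or 2 or double replicate 1 (adjusted p up to 0.109) and Ccl4 without any 1 of the WT libraries or triple replicate 2 or 3 (up to 0.0598).

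Cxcl16 was within 2-fold in every such fit, at 149.8, 148 and 181 CPM in WT and 207, 147 and 155 CPM in the triple genotype. Il18, a cytokine released by inflammasomes, had lower values without overlap, 18.9, 14.7 and 29.6 CPM in WT and 10.3, 13.3 and 9.80 CPM in the triple genotype (log2 fold change -0.92, SE 0.30, edgeR adjusted p 0.386). After the GC and length correction its log2 fold change was -0.81. Tnf, Il1b and Il18 were chosen after their values were seen.

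Phagocytosis and complement genes gave 0 calls among 29, with 24 within 2-fold, where 80.8% of all tested genes at 5 CPM or more were. The complement subunits C1qb and C1qc start the classical cascade. C1qb was at 1905, 1699.8 and 2413 CPM in WT and 2837, 1879.5 and 2048 CPM in the triple genotype, and C1qc at 1629, 1492 and 1966 CPM against 2195, 1607 and 1735 CPM. C3ar1, the receptor for C3a, was at 1718, 1776 and 1982 CPM against 1884, 1776 and 1707 CPM, and Cd14, the co-receptor for lipopolysaccharide, at 1704, 1678 and 1450.4 CPM against 1697, 1741 and 1752 CPM. All 4 overlap between the groups. Tlr4, the receptor that works with CD14 and was chosen after its values were seen, was at 253, 231 and 269 CPM in WT and 171, 155 and 135 CPM in the triple genotype. Its groups do not overlap, but the log2 fold change of -0.71 (SE 0.28) did not pass (edgeR adjusted p 0.526), and it became -0.37 after the GC and length correction.

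Lysosomal and autophagy genes had 35 of 36 members within 2-fold, and 34 of them with each library left out in turn. Of all tested genes, 92.5% between 20 and 100 CPM and 96.1% at 100 CPM or more were within 2-fold. The median log2 fold change of the lysosomal and autophagy list was 0.12, with 30 members above 0. Ctsd was at 13528, 12611 and 7958 CPM in WT and 9394, 13659 and 14598 CPM in the triple genotype, Psap, the precursor of the saposins, at 3942, 3450.4 and 2915 CPM against 3410.2, 3652 and 4149 CPM, and Ctss at 3535, 3322 and 3566 CPM against 3044, 3026 and 3327 CPM. Their groups overlap, and the fitted changes were 0.14, 0.12 and -0.15 on the log2 scale. Lamp2, a membrane protein of lysosomes chosen after its values were seen, had no overlap, with 1839, 1999 and 1870.0 CPM in WT and 1252, 1441 and 1430.0 CPM in the triple genotype (-0.47, SE 0.16, edgeR adjusted p 0.41), and was within 2-fold. After the GC and length correction the value for Lamp2 was -0.09.

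Arg1, arginase 1, is a gene that differed between the double genotype and the other groups. It was at 59.6, 81.4 and 55.98 CPM in WT, 75.1, 89.98 and 68.1 CPM in the triple genotype and 5.57, 4.51 and 6.27 CPM in the double genotype. It fell by 3.57 in the double genotype against WT on the log2 scale (edgeR adjusted p 0.00273) and was higher in the triple than in the double genotype by 3.81 (edgeR adjusted p 0.00278). Both calls held with each library left out, with adjusted p of at most 0.0203 and 0.0281. Against WT the triple value was undetermined (95% interval -0.85 to 1.33). Cd52, a surface glycoprotein of leukocytes, was at 136 ± 19.04 CPM in WT, 149 ± 21.3 CPM in the triple genotype and 64.4 ± 2.88 CPM in the double genotype (SD, n = 3), and was within 2-fold of WT in the triple genotype. Both genes were chosen after their values were seen. Msr1, Mrc1, Stat6 and Il4ra, named by rule from the list of alternative activation that holds Arg1, were within 2-fold of WT with log2 fold changes from -0.16 to 0.18.

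All 30 ribosomal protein genes tested were within 2-fold with each library left out in turn, with log2 fold changes between -0.21 and 0.18 and a median of 0.09. Of all tested genes at 100 CPM or more 96.1% were within 2-fold, and of those between 20 and 100 CPM 92.5%. Rpl4 was at 871, 842 and 754 CPM in WT and 838, 895 and 932 CPM in the triple genotype, and Rps3 at 536, 461 and 433 CPM against 497, 506 and 524 CPM. Cholesterol synthesis genes had 22 of 24 within 2-fold, with Msmo1 at 241 ± 1.19 CPM in WT and 237 ± 11.3 CPM in the triple genotype (SD, n = 3).

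Stress genes gave 0 calls. Of 25 genes of the unfolded protein and integrated stress responses, 17 were within 2-fold, and Hspa5, the chaperone BiP, was at 546, 606 and 534 CPM in WT and 419.7, 576 and 536 CPM in the triple genotype. Atf3, a stress-induced transcription factor, was at 332, 334 and 315 CPM against 343, 346 and 360.1 CPM. Immediate early and heat shock genes had 14 of 20 within 2-fold, with Fos at 149.9 ± 44.7 CPM against 163 ± 45.5 CPM and Hspa8 at 579 ± 46.4 CPM against 657 ± 61.6 CPM (SD, n = 3). Glycolysis and hypoxia genes had 22 of 28 within 2-fold, and their list mean followed the split among libraries, with WT replicate 3 at -0.37 and triple replicate 1 at -0.19 on the log2 scale and the other 4 between 0.16 and 0.25. Disease-associated microglial genes had 25 of 28 within 2-fold, antigen presentation genes 17 of 23 and antioxidant genes 16 of 24. In each of these lists 0 genes were called. The shares within 2-fold stand beside 54.8% of all tested genes and 80.8% of those at 5 CPM or more.

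None of the 13 protein-coding genes of the mitochondrial genome could be placed within 2-fold, 0 were called, and 12 of 13 had a log2 fold change below 0, with a median of -0.60. mt-Nd1, a subunit of complex I, was at 1925, 2285 and 1058 CPM in WT and 595, 1518 and 1349 CPM in the triple genotype, and mt-Cytb, of complex III, at 3189, 3663 and 1355 CPM against 709, 2361 and 2341 CPM. The groups overlap, with WT replicate 3 below the other WT libraries and triple replicate 1 the lowest of the 6. The log2 fold change of mt-Nd1 was -0.61 (95% interval -1.59 to 0.38). The double libraries, at a mitochondrial share of 0.463% ± 0.082 (SD, n = 3), were low too, and mt-Nd3 was at 7.53, 7.90 and 5.28 CPM in WT, 2.55, 7.10 and 6.63 CPM in the triple genotype and 0, 0 and 0.398 CPM in the double genotype.

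Of the markers of other cell types, 0 were called. Border macrophage and monocyte markers, of which 9 of 12 were tested, summed to 1884 to 1913 CPM in WT and 1898 to 2048 CPM in the triple genotype, largely Stab1, Ms4a7, Mrc1 and Pf4. Their means over the 6 libraries were 882, 551, 260 and 128 CPM in that order. Each is above every value of Tmem119, Sall1 and P2ry12 given earlier. Astrocyte markers summed to 266 to 274 CPM and 238 to 289 CPM, most of it Glul, which macrophages also express, and Gfap was at 1.35 ± 1.04 CPM against 2.40 ± 1.28 CPM (SD, n = 3). Oligodendrocyte lineage markers summed to 137 to 153 CPM and 136 to 172 CPM, mainly Cnp and Mbp. Fibroblast, mural and endothelial markers summed to 67.8, 21.1 and 15.4 CPM in WT and 15.1, 23.8 and 64.8 CPM in the triple genotype, so that 1 library in each group is high. Neuronal markers summed to 7.91, 4.83 and 21.2 CPM in WT and 10.97, 4.39 and 5.69 CPM in the triple genotype. Of 14 markers of other blood cells 1 was tested, and Cd3e, Ly6g and Hba-a1 had no counts in any of the 6 libraries. The part of these cells in the differences above was not tested.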

How the data were processed

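Per the labels' protocols, total RNA of cultured microglia was made into Smart-seq2 libraries from 1 ng of RNA and sequenced as paired reads of 50 bases. The deposited values are whole-number counts per gene. Per the submitters' processing notes the tools were STAR and featureCounts with mm10, while the labels' protocols name RSEM on the mm10 UCSC transcriptome. How the authors handled overlapping genes or multiple matches is not given in the sources used here. Of 50686 gene identifiers, 50376 had a symbol, and the rest held at most 0.00437% of a library's counts.

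Counts of all 18 libraries were fitted with 1 mean per genotype in edgeR 4.0.16 (R 4.3.3; filterByExpr, TMM scaling, quasi-likelihood F test, Benjamini-Hochberg over 13447 genes), so that all genotypes share the estimate of the spread. SE was the fold change divided by the square root of F. Within 2-fold means an adjusted p under 0.05 in a pair of one-sided tests at a margin of 1 on the log2 scale. DESeq2 1.42.0 and limma 3.58.1 were alternatives. The code was checked on simulated counts. Named genes are the 3 altered ones. To these were added the 10 called in each direction with the largest fold change at a mean of 5 CPM or more and no overlap (with under 4 called, the 4 of smallest unadjusted p). Each list gave up to 4 members: called ones, then those within 2-fold with the highest CPM, then undetermined ones with the largest fold change. The last were the 10 protein-coding genes of highest CPM within 2-fold and the 5 called in each direction between the double genotype and WT with the largest fold change. Some genes that the rule or the lists hold are not reported here. Others were named after their values were seen, as the report says. Alternatives were other tools, scalings, filters, covariates, margins, a replicate block and each library left out. The comparison, the 27 gene lists and this rule were chosen with earlier results of these data known. Coordinates are GRCm38; GC content is that of the longest transcript.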

Additional observations from a re-analysis of the deposited data

How the results depend on the processing

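The 0 genes called between the triple genotype and WT became 63 with DESeq2 (4 higher, 59 lower), 193 with no filter on low counts (32 higher, 161 lower) and 0 in the other settings except those chosen after seeing the data, including limma-voom, DESeq2 size factors and each fit without 1 library of either genotype. Of the alternatives chosen after seeing the data, the 6 libraries with a term for a mitochondrial share under 1% gave 131 calls (5 higher, 126 lower), of which 110 had groups without overlap, 48 were within 2-fold in the fit of 18 libraries and 40 were shared with DESeq2 (30.5% of the 131, 63.5% of the 63). The 126 lower calls include 7 of the 11 mitochondrial protein-coding genes tested in that fit, whose own counts enter the share. The median GC content of the 126 was 39.7%, against 49.1% over the genes at 5 CPM or more. WT replicates 1 and 2 against triple replicates 2 and 3 alone gave 7 calls, and the other added alternatives gave 0. The cause of these differences was not tested. The 7367 genes within 2-fold were 6384 to 6604 without 1 library and 2220 at a 1.5-fold margin, which is a stricter limit, and stayed within 1.5 times 7367 in the other alternatives.

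Between the triple and the double genotype 330 genes were called. This was 695 with DESeq2, 864 without the filter, 574 with only the libraries compared, 681 with Y-linked CPM as a covariate, 164 with the term for a mitochondrial share, 534 without WT replicate 3 and triple replicate 1, and from 87 to 435 without 1 library. The lowest were 87, 93 and 159 without double replicates 1, 2 and 3 and 98 and 95 without triple replicates 2 and 3.

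The replicate numbers did not pair the samples: deviations from the group means of WT and triple libraries of the same number had correlations of -0.31, 0.24 and -0.32, and WT replicate 3 with triple replicate 1 had 0.51. With a replicate block the 3 counts were 0, 7335 and 313.

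Of 112 named genes, 83 were within 2-fold and 70 of them kept that in each of the alternatives. Of the other 29, 11 were called in some alternative. These were Cetn3, AI987944, Ddx3x and Msantd4 with DESeq2 and without the filter. The rest, called without the filter, were Ripk1 (log2 fold change 0.87, edgeR adjusted p 0.017), mt-Nd1, mt-Nd2, mt-Cytb, mt-Nd6, Uty and Xist. Of these 11, 7 were also called in the 6 libraries with the term for a mitochondrial share under 1%. Among the 7 are mt-Nd1, mt-Nd2, mt-Cytb and mt-Nd6. Their own counts enter that share, so their calls in that fit are not independent of the term. 3 genes had a fold change that turned from lower to higher: mt-Cytb to 0.041 and mt-Nd6 to 0.0099 with the mitochondrial share as a covariate, mt-Nd6 to 0.11 with the GC and length correction, and Uty to 0.54 with the mitochondrial share as a covariate. None of the 3 was called in those fits, and the cause was not tested. The count level limits what could be shown: 0 of 2384 genes under 1 CPM and 160 of 2148 from 1 to 5 CPM could be placed within 2-fold, against 1322 of 1376 at 100 CPM or more, and the median 95% interval over all genes reached 0.62 on the log2 scale to either side.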
